A study of Mus musculus with 2 samples.

Results

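Carriers that move amino acids and monocarboxylates such as lactate across membranes were followed in the skeletal muscle of transgenic mice overexpressing RXRγ. The set holds every probe set that the platform annotation assigns to a single gene symbol beginning with Slc1a, Slc3a, Slc7a, Slc16a, Slc36a, Slc38a or Slc43a, which gives 55 of 18194 genes and 112 of 45101 probe sets. Each probe set is made of several short oligonucleotides, and it can report more than 1 transcript form of its gene. Symbols alone chose the members, and Slc7a6os and Slc36a1os, which are named for their position opposite a carrier gene and are not known as carriers, came in with them.

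RXRγ mice are C57BL6 animals in which the human α-actin promoter drives RXRγ in skeletal muscle. Those used here belong to line 4-3, so 1 transgenic line stands for the genotype. Non-transgenic control mice were the reference. All animals were females at 4 months of age. The RNA of several animals of a genotype was combined and put on 1 Affymetrix MG430 array. According to the Methods 5 animals were combined, whereas the sample labels speak of 3. With 1 array per genotype there were no replicates, so no value has an error, no difference was tested, and the number of arrays limits precision. The muscle is not named beyond skeletal muscle, and fewer cells of a type cannot be told apart from less RNA per cell in such samples.

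The transgene was seen on its array, with a signal of 9172.1 for Rxrg in RXRγ mice against 334.5 in control mice. Signals are the authors' linear array units, and the mean signal without 2% of probe sets at each end was 100 on both arrays. All 7 markers of muscle fibres were measured, among them Acta1 (10439.9 in RXRγ mice and 10998.7 in control mice); none was higher, and Ckm and Myh4 were lower, each at 1 of its 2 probe sets (log2 ratios -1.39 and -0.77) and not at the other (-0.11 and -0.06). The markers of other cell types were summed over all their probe sets. The sums in RXRγ and control mice were 9472.8 and 8401.1 for adipocytes, 13369.3 and 11672.1 for fibroblasts, 1872.8 and 1622.4 for macrophages, 1727.4 and 1522.8 for Schwann cells, 928.4 and 1152.3 for endothelial cells, and 39 and 105.6 for the red cell lineage. None of these probe sets was at 0. Above a signal of 250 were 3 of 6 adipocyte, 6 of 6 fibroblast, 3 of 6 macrophage, 2 of 6 Schwann cell and 0 of 8 endothelial genes, and 0 of 6 of the red cell lineage, of which 3 had a probe set. Of the genes of these other cell types above 250, only Lum, a fibroblast proteoglycan, differed by 0.4 or more on the log2 scale (1770.8 against 699.1). Probe sets that did not reach 250 were not counted in this, so it does not cover the endothelial genes. The part of these cell types in the carrier values below was not tested.

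As background, muscle takes up and releases amino acids according to feeding, work and protein turnover, and its carriers fall into a few mechanisms. Slc38a proteins import glutamine and other neutral amino acids with sodium, Slc1a proteins carry glutamate or neutral amino acids, and Slc36a proteins move small amino acids with protons. Many Slc7a proteins are light chains that reach the surface only when bound to a heavy chain of the Slc3a family, whereas Slc43a proteins need no such partner. Slc16a proteins carry lactate, pyruvate and ketone bodies, and some members carry aromatic amino acids or thyroid hormone.

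Most of the carriers, like most genes on the arrays, gave signals too low for a comparison. A gene was taken as measured when at least 1 of its probe sets exceeded 250 on the brighter array, the level used in the Methods. Of the 55 carriers 9 were measured, on 10 probe sets, and of all 18194 genes 3780 were. The value of a gene is the mean log2 ratio of RXRγ over control mice across its probe sets above that limit. The threshold for calling a gene higher or lower was 0.4 in either direction. By that count 5 carriers were higher in RXRγ mice (Slc16a1, Slc3a2, Slc43a2, Slc38a4 and Slc38a10), 3 were lower (Slc16a3, Slc38a3 and Slc7a2) and Slc38a2 was neither. With median scaling 2 were higher and 3 lower, since Slc38a4 and Slc38a10 no longer reached 0.4 and Slc43a2 no longer reached 250. Over all 3780 measured genes, 16.8% were higher and 20.1% were lower (13.1% and 26.5% with median scaling). The median log2 ratio was 0.43 for the 9 carriers and -0.04 for all measured genes. Slc43a2 passed 250 only in RXRγ mice, and Slc16a3 and Slc38a3 passed it only in control mice, so these 3 had to differ in the direction they did, and neither the count nor the median is support for a direction of the carriers. When both arrays had to exceed 250, 6 carriers were measured, 4 of them higher and 1 lower. Over the 3055 genes measured in that way, 12.1% were higher and 16.4% were lower.

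**Figure D1:**
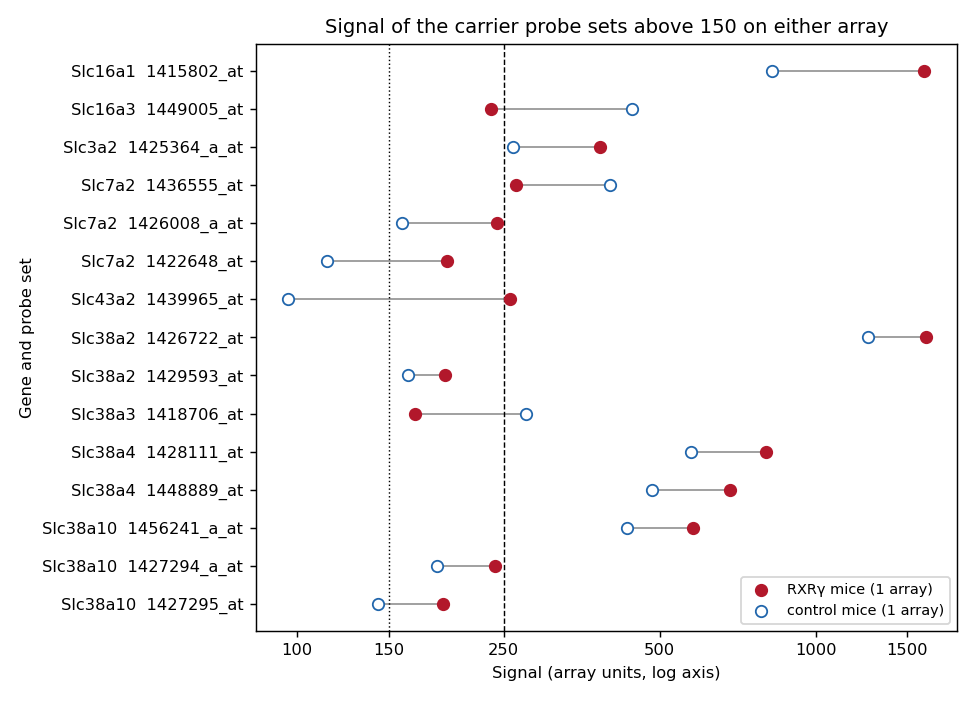
Signal of the 15 carrier probe sets above 150 on either array, on a log axis in array units, in RXRγ mice (filled circles) and control mice (open circles), 1 array per genotype. The dashed line marks 250 and the dotted line 150; the filled circle lies to the right of the open one except at Slc16a3, Slc38a3 and the brightest probe set of Slc7a2.

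The 2 lactate carriers of muscle had log2 ratios of opposite sign, but the filter fixed the sign of Slc16a3. Slc16a1, the monocarboxylate transporter MCT1 of oxidative fibres, gave 1618.5 in RXRγ mice and 822.7 in control mice, 1.97-fold higher (log2 ratio 0.98). Of the 3780 measured genes, 200 had a log2 ratio at least as high. Its other probe set had 22.6 in RXRγ mice and 15.4 in control mice, too low for a fold. Slc16a3, the transporter MCT4 that exports lactate from glycolytic fibres, had 236.5 in RXRγ mice against 441.5 in control mice on its single probe set, 1.87-fold lower (log2 ratio -0.90), and 189 genes had a log2 ratio at least as low. Slc16a3 passed the limit for a measured gene only in control mice, so it had to come out lower. Its direction and rank therefore give no contrast with Slc16a1. Both genes had signals above 150, the level taken as expressed in the Methods, on both arrays. Basigin (Bsg), the chaperone that brings both carriers to the cell surface, was nearly equal, at 4169.1 in RXRγ mice and 4129.1 in control mice (log2 ratio 0.01). Embigin (Emb), the other chaperone of this family, stayed under 100 at each of its 3 probe sets, with at most 91.5 in RXRγ mice and 49.3 in control mice.

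The bases before the start of Slc16a1 are shown because this carrier had the highest ratio among those above 150 on both arrays. They come from RefSeq (GRCm38.p6, chr3:104638414-104638663, plus strand, the 250 bases before the start), and no annotated gene lies over them. Capitals mark an E-box, CACGTG, whose first base is 200 bases before the start, and TTATAA, in which TATAA reads on both strands.
Slc16a1: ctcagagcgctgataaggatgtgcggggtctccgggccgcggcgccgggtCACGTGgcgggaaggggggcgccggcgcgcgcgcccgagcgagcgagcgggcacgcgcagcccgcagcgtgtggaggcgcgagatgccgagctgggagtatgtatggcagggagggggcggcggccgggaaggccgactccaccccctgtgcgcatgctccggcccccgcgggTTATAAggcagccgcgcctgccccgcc
Both motifs were chosen after the sequence had been read. On either strand, 6.02% of all 32851 promoter windows of this length held CACGTG and 22.8% held TATAA. Of the 10 windows of the measured carriers, 1 held CACGTG and 3 held TATAA, one each of Slc16a1, Slc38a2 and Slc38a4.

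The remaining 11 Slc16a genes, on 20 probe sets, did not exceed 117.8 in RXRγ mice or 144.1 in control mice. The closest to the level of 150 was Slc16a10, a carrier of aromatic amino acids and thyroid hormone, with 110.5, 117.8 and 109 in RXRγ mice at its 3 brighter probe sets against 144.1, 140.9 and 60.9 in control mice. These 3 probe sets did not run the same way. Slc16a9, whose human counterpart carries carnitine, had 52.8, 41.2 and 28.8 in RXRγ mice against 101.1, 110.5 and 78.4 in control mice. All 3 of its probe sets were dimmer in RXRγ mice, and all 6 signals were under 150, so no fold is given. The thyroid hormone genes listed beside them were not measured either: the brightest of their 10 probe sets, one of the receptor gene Thra, had 200.1 in RXRγ mice and 170.3 in control mice.

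The heavy chain Slc3a2, known as 4F2hc or CD98, was 1.47-fold higher in RXRγ mice. Its 1 probe set gave 383.2 in RXRγ mice and 261.3 in control mice (log2 ratio 0.55), above 250 on both arrays. None of the light chains that pair with it reached 150. Slc7a5, the leucine carrier LAT1, had 24.6 in RXRγ mice and 7.1 in control mice, and Slc7a8, the related LAT2, had 88.9 and 29.8. Slc7a6, a y+L type light chain, had 66.9 and 58.2 at its 2 probe sets in RXRγ mice against 86.4 and 76.3 in control mice. Slc7a11, the cystine carrier, stayed at or under 6.6 in RXRγ mice and at or under 4.6 in control mice. Thus the heavy chain is the only part of these heterodimers with a level that could be compared. Slc3a1, the heavy chain of kidney and gut, had 17.4 in RXRγ mice and 19.1 in control mice.

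Slc7a2, the cationic amino acid transporter CAT2, which brings in arginine and lysine without a heavy chain, gave probe sets that disagreed. The only one above 250 had 264.2 in RXRγ mice and 401.1 in control mice, 1.52-fold lower (log2 ratio -0.60). Just under the limit, another had 242.4 in RXRγ mice and 159.5 in control mice, 1.52-fold higher (log2 ratio 0.60). One more had 194.9 and 113.9 and was at least 1.30-fold higher against the level of 150, and the last was dim, with 29.3 and 54.1. The distance between the lowest and highest log2 ratio of its probe sets above 150 was 1.38. Among 1857 genes with more than 1 probe set above 150 on the brighter array, this distance had a median of 0.23 and was at least as wide in 13, Slc7a2 included, and 12 genes had probe sets past 0.4 in both directions. The gene therefore has no single direction on these arrays, although it counts as lower above. CAT2 is known to be made in alternatively spliced forms, and which form each probe set reports was not determined here.

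The other cationic amino acid carriers were dim. Slc7a1, the widely expressed CAT1, had 98.5, 61.9 and 23.5 in RXRγ mice at its 3 probe sets against 49.7, 44.1 and 21.1 in control mice. The signals were higher in RXRγ mice at each of them but under 150 throughout. Over the 15 Slc7a genes that were not measured, 25 probe sets lay between 1.1 and 98.5 in RXRγ mice and between 1.1 and 86.4 in control mice.

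Slc43a2, the transporter LAT4, which lets branched-chain amino acids, phenylalanine and methionine leave cells without sodium, was higher in RXRγ mice on a low level in control mice. Its brightest probe set had 256.8 in RXRγ mice and 95.9 in control mice. Since the control signal was under 150, the difference is a lower bound of 1.71-fold higher in RXRγ mice. Its signal lay just inside the limit of 250. The 2 other probe sets were dim and also brighter in RXRγ mice, with 66.5 and 22.1 against 42.0 and 2.6 in control mice. Slc43a1, the related LAT3, had 69 in RXRγ mice and 100.1 in control mice, and Slc43a3, a nucleobase carrier in spite of its name, had 72.4 and 102.6. Both lay under 150.

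**Figure D2:**
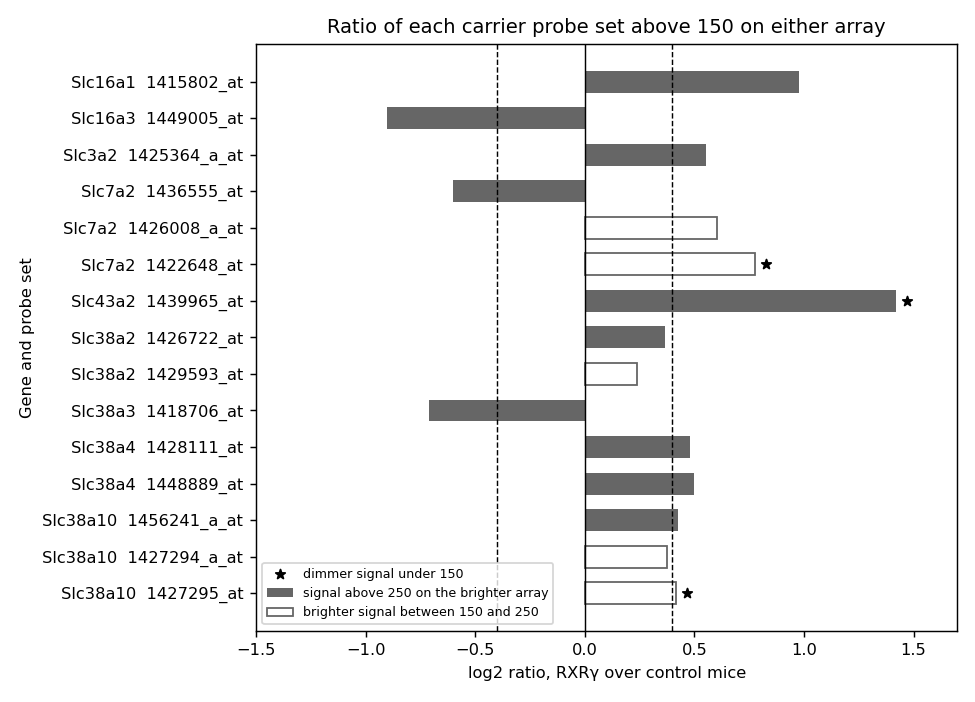
Ratios on the log2 scale, RXRγ over control mice, of the same 15 probe sets, with dashed lines at 0.4 in either direction. Filled bars are probe sets above 250 on the brighter array, open bars those between 150 and 250, and stars mark a dimmer signal under 150, where the ratio is too uncertain for a fold; the 3 bars of Slc7a2 run from -0.60 to 0.77.

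The Slc38a family had the most measured members, 4 of 9 genes. Slc38a3 was the only one of them with a lower signal in RXRγ mice. It passed 250 only in control mice, so the filter fixed its direction, and no contrast within the family can be drawn from it. Slc38a4, a sodium-coupled carrier of neutral and cationic amino acids that is imprinted in the mouse, was higher at both of its probe sets, though not with median scaling (log2 ratio 0.39). They had 801.1 and 683.1 in RXRγ mice against 574.4 and 484.3 in control mice, log2 ratios of 0.48 and 0.50, and all 4 signals were above 250. The distance between the 2 ratios was 0.02. Among the 1213 genes with more than 1 probe set above 250 it had a median of 0.20. Slc38a10, a less well described member, had 580.6 in RXRγ mice and 432.4 in control mice at its probe set above 250 (log2 ratio 0.43), close to the threshold. Its next probe sets had 241.2 and 191.3 in RXRγ mice against 185.8 and 143.2 in control mice (log2 ratios 0.38 and 0.42), and the 4 others stayed under 60.

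Slc38a2, the amino acid carrier SNAT2, known to be induced by amino acid lack, gave 1630.5 in RXRγ mice and 1265 in control mice. At 0.37, the log2 ratio did not reach the threshold, and 702 of 3780 genes were at least as high. Its second probe set above 150 gave 192.6 in RXRγ mice and 163.5 in control mice (log2 ratio 0.24), and the last was dim, at 34.6 and 25.7. Slc38a3, the glutamine carrier SNAT3, was the lower member of the family, with 168.6 in RXRγ mice against 276 in control mice, 1.64-fold lower (log2 ratio -0.71), on 1 probe set. Its other probe set was dim, at 18.7 and 17.2.

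In the RefSeq gene order Slc38a1, Slc38a2 and Slc38a4 are consecutive protein-coding genes of chromosome 15. Slc38a1, the carrier SNAT1, had 56.6 and 25.4 in RXRγ mice against 34.8 and 19.8 in control mice. Only 3 of the 7 probe sets of these 3 genes exceeded 250, and whether their position bears on the ratios was not tested. The window before the start of Slc38a2 is shown as the one measured carrier of this run of genes with no annotated gene over it (GRCm38.p6, chr15:96699729-96699978, minus strand, 250 bases before the start, from RefSeq). Capitals mark TATAA.
Slc38a2: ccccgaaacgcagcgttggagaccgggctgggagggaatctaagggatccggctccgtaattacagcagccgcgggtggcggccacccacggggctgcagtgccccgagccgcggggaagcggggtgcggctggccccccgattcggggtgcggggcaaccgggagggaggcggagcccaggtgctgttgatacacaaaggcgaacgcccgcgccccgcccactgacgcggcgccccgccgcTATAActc

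Letters known from nuclear receptors and from amino acid starvation were also sought, on both strands of windows that run from 250 bases before to 50 after each start. RefSeq windows matched 40 of the 55 genes and 7 of the 9 measured ones. Of the 10 windows of the measured carriers, 0 held the receptor recognition site AGGTCA, which 16.3% of all 32851 windows and 7 of the 51 windows of all carriers held. The direct repeats of it with 1 or 4 bases between the copies, DR1 and DR4, each contain that site and were found in 0.0396% and 0.0152% of all windows and in 0 of the 51 windows of the carriers. TGATGNAA, the core of the amino acid response element, was in 0 of the 10 and in 3.97% of all. Among the carriers that were not measured it was found in 4 windows, 2 of Slc7a7 and 1 each of Slc7a11 and Slc1a4. A match or its absence describes only these letters in these windows.

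Of the 46 carriers that were not measured, none exceeded 150 on either array. Slc1a5, the glutamine exchanger ASCT2, came closest in RXRγ mice, with 138.2 against 128.2 in control mice. The 7 Slc1a genes were on 21 probe sets with at most these values, and the glutamate carriers Slc1a1, Slc1a2 and Slc1a3 of nerve and kidney were among them, with at most 67.7 in RXRγ mice (Slc1a1) and 35.3 in control mice. The 5 genes with Slc36a symbols lay at or under 74.6 in RXRγ mice and 58.8 in control mice. Slc36a4, a high-affinity carrier of proline and tryptophan, had 74.6 and 39.3, and Slc36a2, a carrier of glycine and proline, had 61 and 58.8. Slc38a9, which reports lysosomal arginine to the growth-regulating kinase complex mTORC1, had at most 110 in RXRγ mice and 97.3 in control mice over its 7 probe sets. In all, 15 of the 112 carrier probe sets were above 150 in RXRγ mice and 12 in control mice, and those 12 were above it on both arrays. Over all 45101 probe sets, 8128 were above 150 in RXRγ mice and 8091 in control mice.

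**Figure D3:**
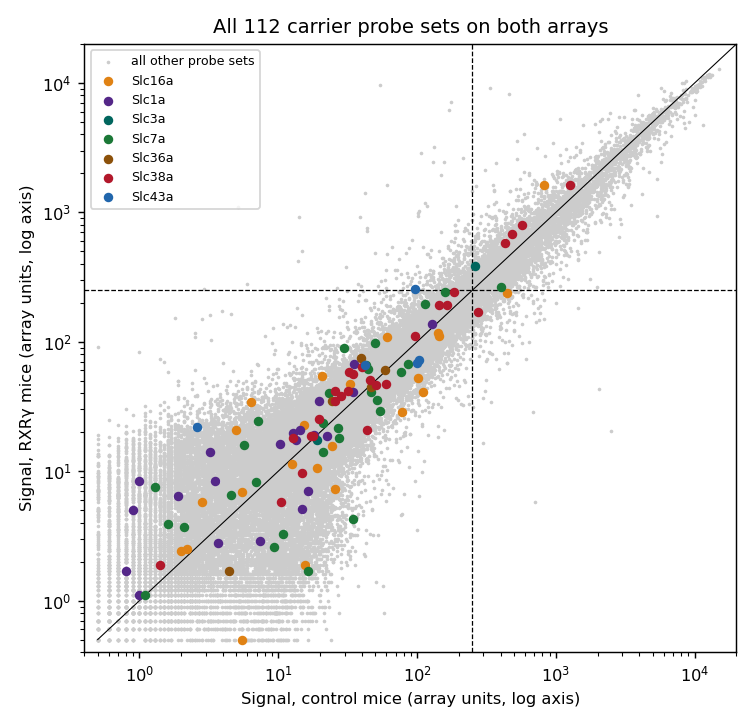
Signal of all 112 carrier probe sets in RXRγ mice (vertical) against control mice (horizontal), both on log axes in array units and coloured by family, over all other probe sets in grey, of which those under 0.5 on either array are not drawn. Dashed lines mark 250 and the solid line equal signals; only 10 carrier probe sets lie beyond a dashed line and the grey cloud widens below 150.

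Other genes of amino acid transport and use gave both directions. Of 20 carriers of amino acids, taurine, creatine and small peptides outside the 7 families, 2 were measured and both were higher. The creatine transporter gene Slc6a8 averaged 756.9 in RXRγ mice and 534.6 in control mice over 2 probe sets, whose log2 ratios were 0.44 and 0.64. Slc6a17, a vesicular neutral amino acid carrier best known from neurons, had 375.9 in RXRγ mice and 30.7 in control mice, at least 2.51-fold higher against the level of 150. Like Slc43a2, it passed the filter in RXRγ mice only. Slc6a6, the taurine transporter, had at most 235.2 in RXRγ mice and 181.1 in control mice.

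Of 24 genes through which amino acids regulate mTORC1, 14 were measured, 2 were higher, 2 were lower and 10 were neither, with a median log2 ratio of -0.04. Mtor, the kinase itself, had 413.9 in RXRγ mice and 229.7 in control mice (log2 ratio 0.85), and so passed 250 in RXRγ mice only. The GTPase gene Rragc had 510.7 and 310.6 (log2 ratio 0.72). Folliculin (Flcn), which acts on that GTPase, was lower at a mean of 279.2 in RXRγ mice against 399.8 in control mice. One of its probe sets passed 250 in control mice only (195.2 against 316.8), so it had to come out lower. The other had 363.1 against 482.7 (log2 ratio -0.41), close to the threshold. The lysosomal scaffold gene Lamtor2 was lower too (402.9 against 552.8). Rraga and Lamtor3, partners of Rragc and Lamtor2, had log2 ratios of -0.07 and 0.00.

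Of 10 enzymes that make or use glutamine and glutamate, 5 were measured, with 2 higher, 1 lower and 2 neither (median log2 ratio 0.30). Got2 and Glud1, the mitochondrial aspartate aminotransferase and glutamate dehydrogenase, had log2 ratios of 0.74 and 0.52. Oat, ornithine aminotransferase, had 817.4 in RXRγ mice and 2933.8 in control mice, 3.59-fold lower. Glutamine synthetase (Glul) had 1652.8 in RXRγ mice and 1256.7 in control mice (log2 ratio 0.30), with 0.14 and 0.47 at its 2 probe sets. Got1, the cytosolic aspartate aminotransferase, had 2758 in RXRγ mice and 3606.9 in control mice (log2 ratio -0.39), just short of the threshold. The shares of all measured genes that were higher or lower, given above, are the background for these lists too.

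**Figure D4:**
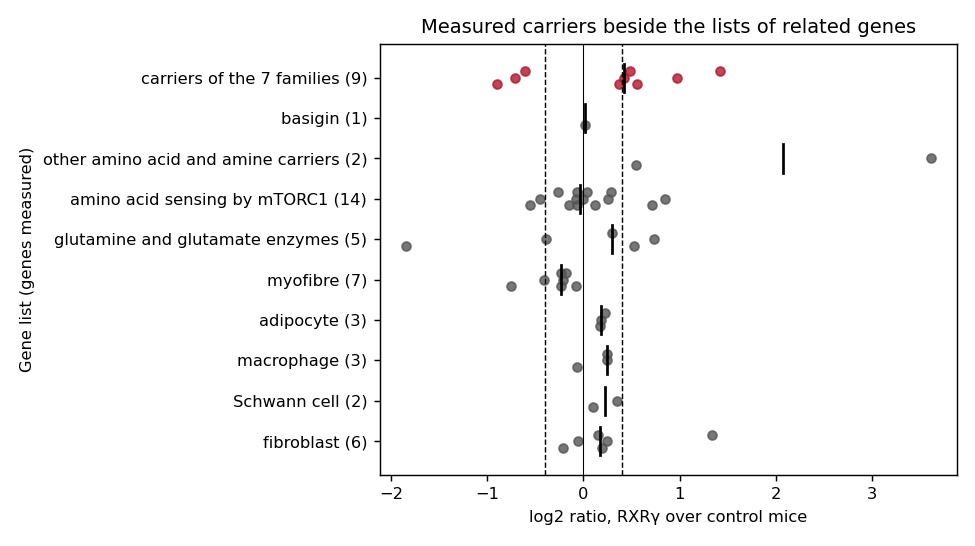
Ratios on the log2 scale, RXRγ over control mice, of the 9 measured carriers (red) and of the measured genes of other lists (grey). A point is a gene, its height within a row has no meaning, and the number of genes stands in parentheses; black bars are medians and the dashed lines lie at 0.4 on either side. The carriers lie on both sides (median 0.43), the mTORC1 genes centre near 0 (median -0.04), and the point furthest right is Slc6a17, whose control signal is too low for a fold.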

How the data were processed

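The authors deposited linear intensity values per probe set, made with Affymetrix Gene Chip software by setting perfectly matched against mismatched oligonucleotides. How they were scaled is not stated in the sources, and detection calls were not used here. The platform annotation names 1 gene for 34958 probe sets and several for 932, while 9211 are not listed; only the first kind was used. Ratios were computed without a pseudocount. No fold was computed from a signal under 150, and a difference is then given as the brighter signal over 150. Symbols of the other gene lists were updated through gene identifiers to RefSeq (GRCm38.p6). The members and lists were chosen with earlier results of these data known. The genes named are all measured members, dimmer members near the limits, and up to 4 of largest change per list; further ones were chosen after their values were seen. The steps were tested on simulated data. Python 3.11.15, pandas 2.3.3, numpy 2.4.6, scipy 1.17.1 and matplotlib 3.10.9 were used, with limma 3.58.1 in R 4.3.3 for loess. Alternatives changed scaling, pseudocount, floor, filter, choice of probe sets and threshold.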

Additional observations from a re-analysis of the deposited data

How the results depend on the processing

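Of the 12 alternatives, the threshold of 1 changes calls but no value. Under the others the 9 carriers gave 90 values. Of these, 88 moved by less than a factor of 1.5, the value taken as moved in the absence of replicates. Many of them could not move under a change of filter, floor or choice of probe sets. This is because 8 carriers rested on 1 probe set above 250 and 8 were above 150 on both arrays. The count of 88 is therefore no measure of stability. Slc43a2 moved to 0.78 with a floor of 150. Slc7a2 changed sign to 0.26 when the limit on the brighter array was 150, where its probe sets run both ways, and was -0.03 with no filter. The number of carriers higher in RXRγ mice was 5, and became 2 with median scaling, 3 above 500 on the brighter array, 21 with no filter and 1 at a threshold of 1. The number lower was 3, and became 1 above 250 on both arrays, 0 above 500 on the brighter array, 13 with no filter and 0 at a threshold of 1. Median scaling moved the median of all genes by -0.11, so that Slc38a4 (0.39) and Slc38a10 (0.33) fell short of 0.4 and Slc43a2 was not measured, and over all genes 13.1% were higher and 26.5% lower. With no filter these shares were 28.6% and 22.6%, and above 500 on the brighter array 16.45% and 21.19%. They were 12.1% and 16.4% above 250 on both arrays, and 5.1% and 4.1% at the threshold of 1. Slc38a10 was also under 0.4 with a pseudocount of 32 and with no filter, Slc38a3 with no filter (-0.30), and Slc38a2 reached 0.42 with loess centring. The calls of Slc16a1, Slc16a3, Slc3a2 and Slc43a2 held under every alternative in which they were measured, except at the threshold of 1. Only Slc43a2 passed that threshold, on a control signal under 150 and not with the floor of 150. For Slc16a3 and Slc43a2 the limit of 250 on the brighter array fixed the direction. Neither was measured above 250 on both arrays or above 500 on the brighter array. That their calls held is therefore no support for them. No paired analysis was possible because there is 1 array per genotype. The spread between animals is not known from these arrays, and signals under 150 limit what can be said of 46 carriers.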
